A study of Caenorhabditis elegans with 59 samples.

Results

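These results concern auxin treatment by itself, in worms that carry no degron. They compare 6 RNA-seq samples of the control strain CA1200 collected at 24 h, 3 on auxin and 3 after mock treatment. These 6 were taken from 59 samples in the series. The samples were chosen by their labels (strain, agent and time), and no measured value was used. The auxin-inducible degron system depletes a tagged protein when the plant hormone auxin brings it to the F-box protein TIR1, and its controls ask what auxin does where there is nothing to degrade.

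CA1200 carries the insertion ieSi57 on chromosome II, in which the eft-3 promoter drives TIR1 joined to mRuby in the soma, beside the rescue gene Cbr-unc-119(+), in an unc-119(ed3) background. Hatched larvae were synchronized by bleaching and grown for 51 h at 20 °C into young adults, and about 120 worms per condition were then picked onto auxin plates or onto plates with the solvent ethanol (mock treatment) for 24 h. Mock-treated worms thus carried the same TIR1. The titles of all samples used here also carry the tag NHS, read here as no heat shock. Whole hermaphrodites were sequenced with their germ line, so that fewer cells of a type and less RNA per cell cannot be told apart. The labels do not say that replicates came from separate cultures, and p-values measure the spread between these samples. For comparison, 6 samples of JTL611 at 24 h and 6 samples of CA1200 at 8 h were used. The 6 JTL611 samples also entered the fit behind the calls, in the estimates of spread and replicate block. JTL611 has the same TIR1 and, in addition, hsf-1::aid::gfp, so that auxin there also acts on the tagged heat shock factor HSF-1.

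The deposited values were log2 CPM, a gene's reads scaled to the size of its library. They are given below as CPM, per library, with the log undone. The CA1200 libraries at 24 h held 16678426 to 22603926 reads on listed genes, and 3 reads corresponded to 0.139 to 0.192 CPM. Mitochondrial transcripts took 0.324% to 0.698% of reads on auxin and 0.434% to 0.857% after mock treatment, and ribosomal RNA took 7.80% to 10.5% on auxin and 7.44% to 12.1% after mock treatment. All 4 groups of the 24 h table were fitted together in limma with the replicate number as a block, and calls required an adjusted p (Benjamini-Hochberg) below 0.05 and, across the 12 libraries, an average level of 2 CPM or more. The targeted gene of the degron strain, hsf-1, had 57.1, 72.6 and 87.0 CPM on auxin and 60.2, 75.1 and 71.0 CPM after mock treatment in CA1200, and these groups overlapped.

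Animals handle foreign chemicals in successive steps. Phase I enzymes, chiefly cytochrome P450s (cyp genes), short-chain dehydrogenases and carboxylesterases, modify the compound. Phase II enzymes, UDP-glucuronosyltransferases (ugt) and glutathione S-transferases (gst), attach a polar group, and ABC transporters such as the P-glycoproteins (pgp) export the product. In C. elegans much of this takes place in the intestine, which also secretes C-type lectins and other proteins induced by pathogens.

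Auxin raised few genes in CA1200 at 24 h. Of 10245 genes tested, 9 were called higher on auxin (0.0878%) and 0 lower in limma, with 389 genes at an unadjusted p under 0.05. These calls come from the fit shared with JTL611, and from the CA1200 libraries alone 0 genes were called. Of the 9 genes, 4 encode phase I enzymes (cyp-35A3, cyp-35A4, cyp-35C1 and cest-33), 1 a phase II enzyme (gst-5), and 1 an infection response protein (irg-4). The others were T16G1.6, a kinase-like gene, and F21C10.9 and C32H11.4. Log2 fold changes ran from 0.80 for cest-33 to 3.28 for cyp-35A3. In each of the 9 genes every auxin library lay above every mock library, as it did for 209 of all genes tested (2.04%), a property that the calls themselves favour. The median log2 fold change over all genes tested was -0.01.

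**Figure D1:**
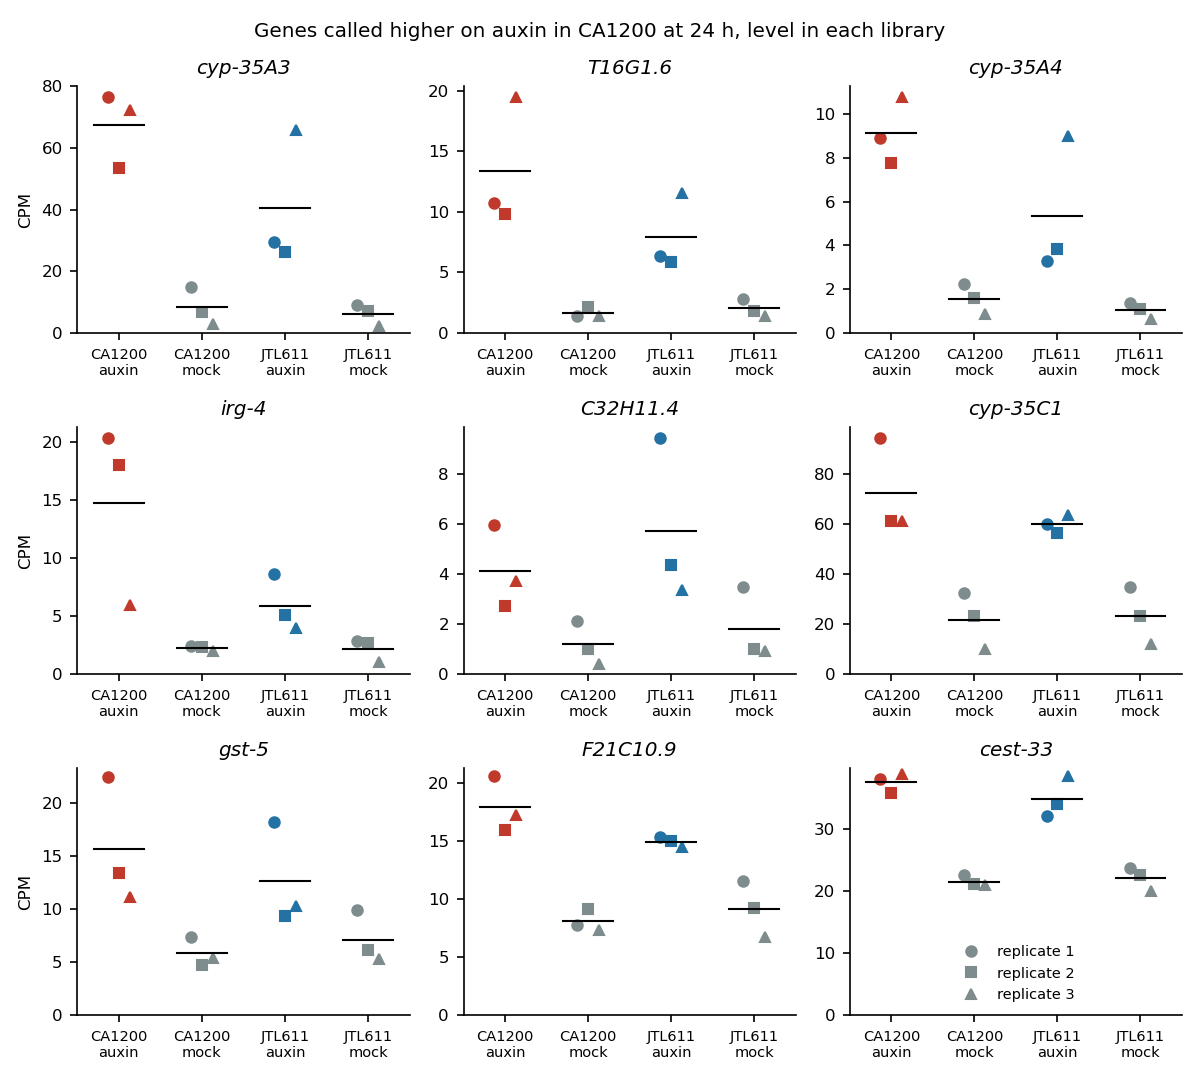
Level (CPM, linear axis) of the 9 genes called higher on auxin in CA1200 at 24 h, in the 3 libraries each of CA1200 auxin (red), CA1200 mock, JTL611 auxin (blue) and JTL611 mock; symbols mark the replicate number and black bars the group mean. The CA1200 auxin libraries lie above the CA1200 mock libraries in all 9 panels, for cyp-35A3 between 53.6 and 76.4 CPM, against 2.96 to 15.1 CPM.

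The 35 family of cytochrome P450s, monooxygenases induced by many foreign chemicals in C. elegans, had 3 of its 6 listed members called. Of all genes tested, 0.0878% were called higher. cyp-35A3, with the largest log2 fold change of the 9 called genes, had 76.4, 53.6 and 72.3 CPM on auxin, against 15.1, 6.87 and 2.96 CPM after mock treatment. Every auxin library was thus several times above the highest mock library, and the log2 fold change was 3.28 ± 0.49 (SE, adjusted p = 0.0163 in limma). Its neighbour cyp-35A4 had 8.92, 7.77 and 10.8 CPM on auxin, against 2.23, 1.59 and 0.879 CPM after mock treatment, a log2 fold change of 2.54 ± 0.40 (adjusted p = 0.0205 in limma). Relative to their level, the auxin values of both genes were close together across replicates, while the mock values fell apart more widely, with replicate 3 the lowest. In CPM the standard deviation was larger on auxin, 12.2 against 6.17 for cyp-35A3 and 1.52 against 0.678 for cyp-35A4.

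cyp-35C1 was expressed at a similar level, with 94.4, 61.2 and 60.9 CPM on auxin, against 32.3, 23.1 and 9.90 CPM after mock treatment. The log2 fold change was 1.85 ± 0.26 (adjusted p = 0.0113 in limma), and the lowest mock library was again replicate 3. The remaining family members did not pass the test. cyp-35A2, the most abundant of them, had 139.8, 134 and 131 CPM on auxin and 70.7, 52.9 and 32.2 CPM after mock treatment (log2 fold change 1.45, adjusted p = 0.107 in limma), and the groups did not overlap. cyp-35A5 had 17.1, 13.4 and 14.8 CPM on auxin and 9.41, 5.58 and 2.27 CPM after mock treatment (log2 fold change 1.59, adjusted p = 0.143 in limma). cyp-35D1 averaged 3.45 CPM on auxin and 1.97 CPM after mock treatment, a log2 fold change of 0.74. All 6 members in the table had their 3 auxin libraries above their 3 mock libraries, as did 2.04% of all genes tested. The 35A genes are close in sequence, and reads shared between copies could have been counted in full at several of them. Their values may thus not be independent, which was not tested.

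The genes lie on chromosome V (WBcel235, Ensembl release 115). cyp-35A3 spans 4022609 to 4024482 and cyp-35A4 spans 4031619 to 4033446 on the same strand, 7137 bases apart. Between and beside them, K09D9.1, C49G7.7 and C49G7.12 had log2 fold changes of -0.93, -1.26 and -1.39, with unadjusted p of 0.033, 0.033 and 0.025 in limma and none called. Their signs were opposite to those of the P450 genes. cyp-35A5 (3936326 to 3938597), cyp-35A2 (7362319 to 7364182) and cyp-35C1 (13896663 to 13898487) lie elsewhere on the same chromosome.

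cest-33 encodes a carboxylesterase and had the smallest fold among the called genes. It had 38, 35.9 and 38.9 CPM on auxin, against 22.7, 21.1 and 20.9 CPM after mock treatment. Relative to its level, its replicates lay closer together than those of any other called gene, and the log2 fold change was 0.80 ± 0.11 (adjusted p = 0.0113 in limma). Over the 106 phase I genes tested, 4 were called higher and 0 lower. At an unadjusted p under 0.05, 14 of the 106 were higher and 3 lower. Over all genes tested, 2.09% were higher and 1.71% lower at that p. The list's median log2 fold change was 0.02, and its members ran from -0.87 to 3.28. Outside the 35 family, dhs-25, a short-chain dehydrogenase, averaged 30.4 CPM on auxin and 17.7 CPM after mock treatment, cyp-33E3 averaged 1.74 and 0.633 CPM, and dhs-23 averaged 2.30 and 0.892 CPM, none of them called. The flavin monooxygenase fmo-1 lay on the other side, with 4.62 CPM on auxin and 10.7 CPM after mock treatment, also not called.

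Among phase II enzymes gst-5, a glutathione S-transferase, was called. It had 22.4, 13.4 and 11.1 CPM on auxin, against 7.39, 4.70 and 5.37 CPM after mock treatment. The log2 fold change was 1.37 ± 0.15, with the smallest adjusted p of the comparison beside irg-4 (0.00151 in limma). gst-5 overlaps nos-1 on the opposite strand, and although the libraries were directional, the strand setting of the counting was not given in the sources used here.

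No glucuronosyltransferase passed the test. ugt-22, the most abundant of those with small p, had 114, 109 and 103.9 CPM on auxin, against 67.9, 52.6 and 29.8 CPM after mock treatment (adjusted p = 0.105 in limma). ugt-21 had 6.08, 6.20 and 6.74 CPM on auxin, against 3.40, 2.58 and 4.03 CPM after mock treatment, and ugt-1 had 4.96, 4.42 and 5.07 CPM, against 2.55, 2.47 and 2.73 CPM. In these 3 genes the groups did not overlap. On the other side, ugt-6 had the smallest p, with 2.68, 1.02 and 1.41 CPM on auxin and 4.15, 2.64 and 2.50 CPM after mock treatment. Of 73 phase II genes, 1 was called, and 14 were higher and 3 lower at an unadjusted p under 0.05, with a median log2 fold change of 0.07. Among all genes tested, 2.09% were higher and 1.71% lower at that p. Of 47 ugt genes, 9 were higher and 3 lower (ugt-6, ugt-51 and ugt-65) at that p, and of 22 gst genes 5 were higher and 0 lower. gst-4, a common reporter of the oxidative stress response, had 23.1, 11.3 and 7.12 CPM on auxin and 16.6, 6.11 and 4.35 CPM after mock treatment. It was higher within each replicate number, while the groups overlapped (log2 fold change 0.68, adjusted p = 0.833 in limma).

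The ABC transporter nearest to a call was the P-glycoprotein pgp-1. It had 48.0, 36.6 and 44.5 CPM on auxin, against 17.0, 22.1 and 22.8 CPM after mock treatment, with no overlap (log2 fold change 1.06, adjusted p = 0.107 in limma). Of 39 ABC transporter genes 0 were called, and pgp-1, pmp-5 and pgp-3 were higher at an unadjusted p under 0.05, as were 2.09% of all genes tested. mrp-4, the most abundant, had 232, 416 and 592 CPM on auxin and 229, 493 and 437 CPM after mock treatment. Nuclear hormone receptors, the class of transcription factors that controls many P450 genes, had 0 calls. The 129 genes tested were 128 nhr genes and aha-1, and the aryl hydrocarbon receptor gene ahr-1 was not among them. Of the 129, only 74 had the mean of 2 CPM that a call needs, and the median log2 fold change was -0.00. At an unadjusted p under 0.05, 2 were higher and 5 lower, where 2.09% of all genes tested were higher and 1.71% lower.

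**Figure D2:**
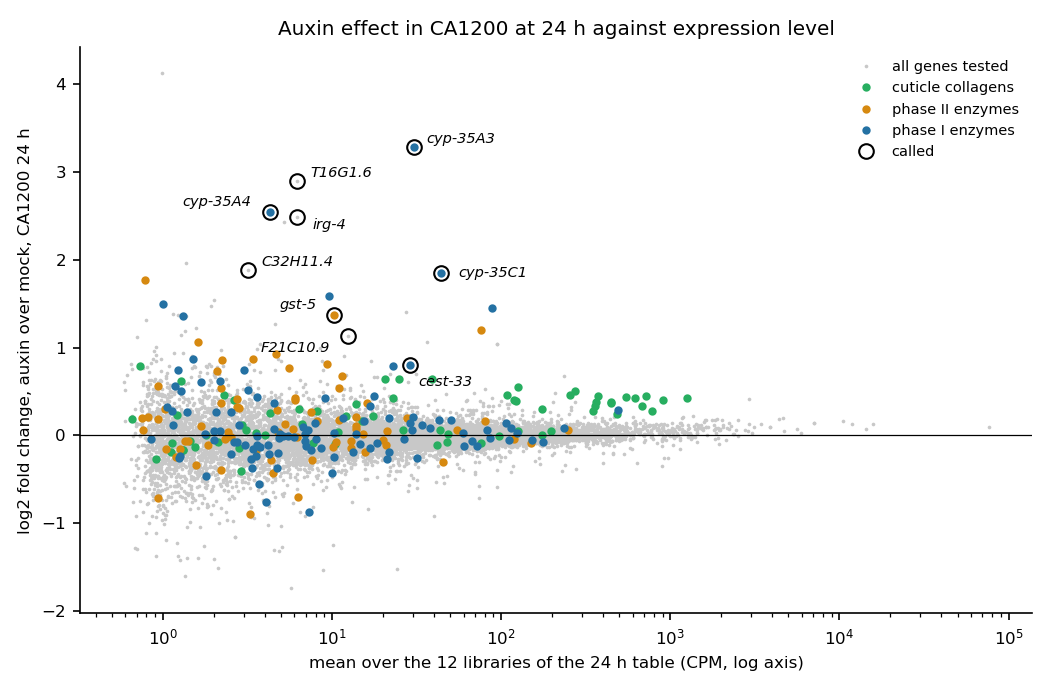
Log2 fold change of auxin over mock treatment in CA1200 at 24 h against the mean over the 12 libraries (CPM, log axis) for the 10245 genes tested, with phase I enzymes (blue), phase II enzymes (orange) and cuticle collagens (green) marked and the 9 called genes circled. Most genes lie near 0 (median -0.01), and the called genes reach from 0.80 to 3.28.

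T16G1.6 belongs to a cluster of kinase-like genes, of which it was the only one called. It had 10.7, 9.87 and 19.5 CPM on auxin, against 1.38, 2.17 and 1.39 CPM after mock treatment. The log2 fold change was 2.90 ± 0.33 (adjusted p = 0.00191 in limma), and T16G1.6 was the only gene called without the block as well. T16G1.7, which lies 426 bases from it, had 6.80, 12.1 and 16 CPM on auxin, against 1.91, 2.47 and 1.57 CPM after mock treatment (log2 fold change 2.43, adjusted p = 0.0769 in limma). T16G1.4, 2967 bases away, had 2.01, 1.78 and 2.12 CPM on auxin and 0.425, 0.764 and 0.972 CPM after mock treatment. Its groups did not overlap either. T16G1.9 of the same cosmid had 53.1, 47.5 and 52.7 CPM on auxin and 64.9, 55.3 and 49.7 CPM after mock treatment, which overlapped. C29F7.2, on chromosome X, was among the next genes by p, with 45.7, 33.4 and 37.5 CPM on auxin and 25.5, 15.3 and 7.82 CPM after mock treatment (log2 fold change 1.40, adjusted p = 0.0951 in limma).

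Of the remaining called genes, irg-4 encodes a secreted protein with a CUB-like domain that is induced by bacterial infection. It had 20.3, 18.0 and 5.97 CPM on auxin, against 2.39, 2.35 and 1.94 CPM after mock treatment (log2 fold change 2.49 ± 0.27, adjusted p = 0.00151 in limma). Replicate 3 was far below the other 2 auxin libraries, yet above all mock libraries. F21C10.9 had 20.6, 15.9 and 17.2 CPM on auxin, against 7.71, 9.16 and 7.36 CPM after mock treatment (log2 fold change 1.13 ± 0.16, adjusted p = 0.0113 in limma). C32H11.4 had 5.97, 2.70 and 3.72 CPM on auxin, against 2.13, 0.999 and 0.416 CPM after mock treatment (log2 fold change 1.88 ± 0.28, adjusted p = 0.0163 in limma). Its ranges nearly touched, with replicate 1 the highest in both groups. F21C10.9 overlaps F21C10.10 on the opposite strand, whose log2 fold change was -0.33.

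The immune effectors as a list, with irg-4 among them, did not move in 1 direction. Of 103 gene IDs tested, 1 was called (irg-4), and the median log2 fold change was -0.10. At an unadjusted p under 0.05, 9 were higher and 9 lower, where 2.09% of all genes tested were higher and 1.71% lower. The C-type lectin clec-209 is listed under 2 gene IDs with equal reads in every library, which cannot be told apart. Both IDs are counted among the 9 higher, as is irg-4. It had 246, 162 and 53.4 CPM on auxin and 99.3, 60.3 and 40.4 CPM after mock treatment, and it was higher within each replicate number, while the groups overlapped (log2 fold change 1.04, adjusted p = 0.0951 in limma). As in irg-4, replicate 3 was the lowest. irg-5 averaged 8.41 CPM on auxin and 3.29 CPM after mock treatment, whereas lys-6, a lysozyme, averaged 2.97 CPM on auxin and 4.26 CPM after mock treatment, neither of them called.

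K12D9.1 passed the adjusted p (0.0204 in limma) but not the limit on the mean, and it is named after its values were seen. It had 12, 63 and 82 reads on auxin, against 0, 2 and 0 reads after mock treatment. The gene was thus near the floor in every mock library, and no fold is given.

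Heat shock genes are targets of HSF-1, the protein depleted in the degron strains, and were examined here under auxin alone. Of 60 chaperone genes tested, 0 were called higher or lower, 0 were higher and 1 lower at an unadjusted p under 0.05, and the median log2 fold change was -0.00. hsp-90, the most abundant, had 4783, 5943 and 5702 CPM on auxin and 4815, 5961 and 5031 CPM after mock treatment. The inducible hsp-70 gene F44E5.4 had 8.09, 1.67 and 0.834 CPM on auxin and 25.4, 2.94 and 0.833 CPM after mock treatment, so that replicate 1 exceeded the others in both groups. Of 13 genes of the mitochondrial and endoplasmic reticulum stress responses, and of 33 proteasome genes, 0 had an unadjusted p under 0.05. F-box, MATH and SKR genes, which include the adaptor partners that TIR1 uses in the ubiquitin ligase, had a median of -0.12. Within replicate numbers 1, 2 and 3 their median log2 difference was -0.01, -0.04 and -0.28. Of 148 tested 0 were called, and 101 had the mean of 2 CPM that a call needs. At an unadjusted p under 0.05, 6 were lower and 0 higher, where 1.71% of all genes tested were lower and 2.09% higher.

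**Figure D3:**
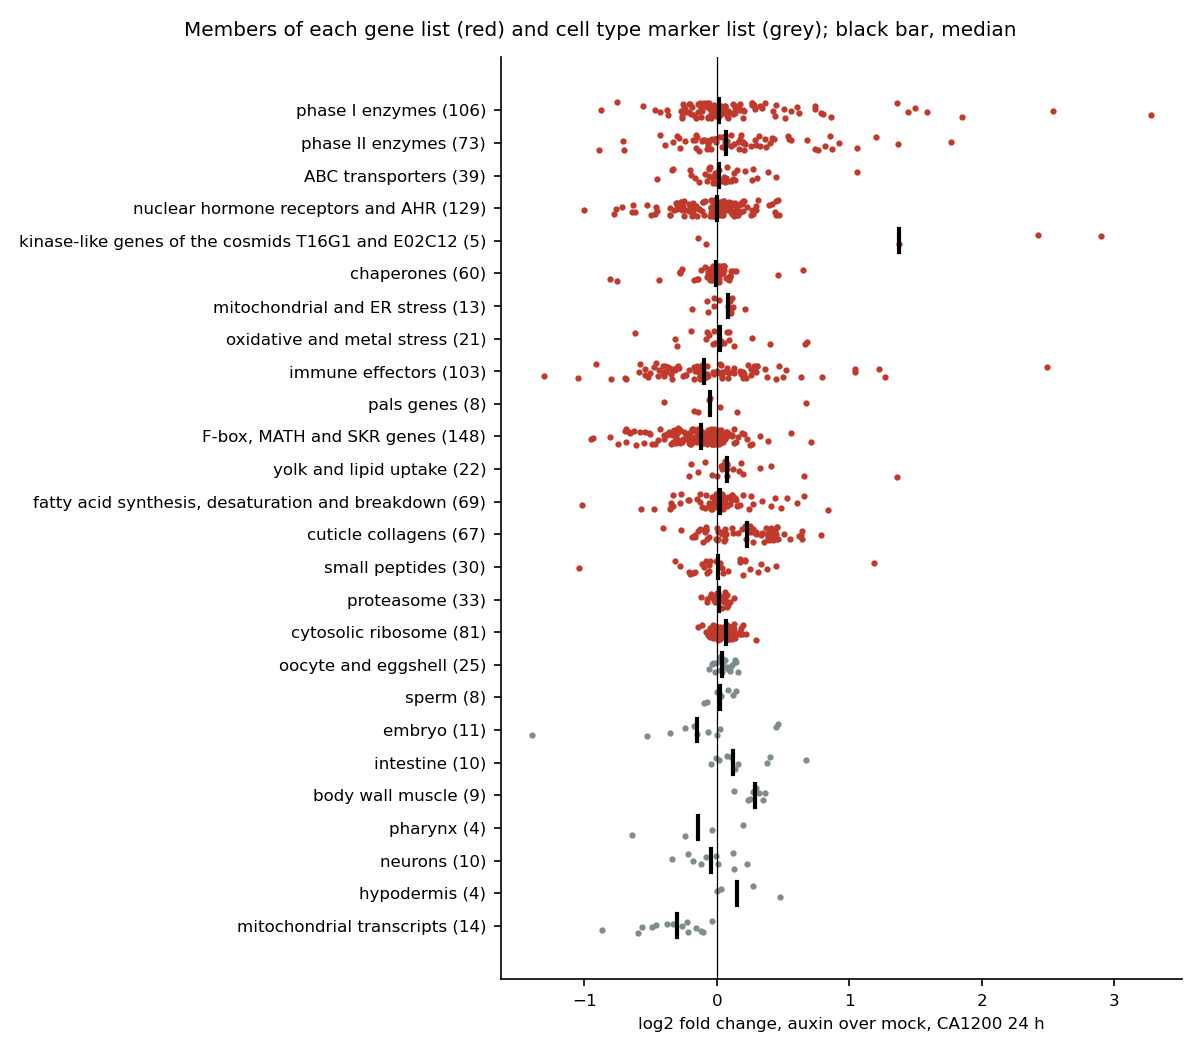
Log2 fold change of auxin over mock treatment in CA1200 at 24 h for the members of each gene list (red points) and cell type marker list (grey points), with the number of members tested in parentheses and a black bar at the median. Phase I and phase II enzymes have medians of 0.02 and 0.07, with single members above 1, and the collagens have a median of 0.23, with 51 of 67 above 0.

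Cuticle collagens, the structural proteins of the worm's exoskeleton, differed from the detoxification genes in form. Of 67 collagen genes 0 were called, but 26 were higher and 0 lower at an unadjusted p under 0.05, 51 had a positive log2 fold change, and the median was 0.23. Over all genes tested, 2.09% were higher and 1.71% lower at that p. col-119, the most abundant, had 1230.2, 1312 and 1569 CPM on auxin, against 1087, 999 and 963 CPM after mock treatment (log2 fold change 0.43, adjusted p = 0.765 in limma). col-103 had 108, 129.7 and 119.6 CPM on auxin, against 89.5, 88.6 and 80.2 CPM after mock treatment (log2 fold change 0.46, adjusted p = 0.2 in limma). In both genes the groups did not overlap. The differences were small, and 20 of the 67 genes had every auxin library above every mock library, as did 2.04% of all genes tested. Within replicate numbers 1, 2 and 3 the median log2 difference of the list was 0.08, 0.31 and 0.30. In JTL611 the list's median was -0.01 at 24 h, with 1 higher and 2 lower at an unadjusted p under 0.05, where 7.82% of all genes tested were higher and 8.45% lower. In CA1200 at 8 h it was -0.07, with 0 higher and 1 lower, where 2.01% of all genes tested were higher and 1.92% lower.

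Lipid genes gave single values only. lbp-8, a fatty acid binding protein of the intestine that lies 5299 bases from cyp-35C1, had 3.35, 1.94 and 0.898 CPM on auxin and 0.957, 0.646 and 0.416 CPM after mock treatment (log2 fold change 1.36, adjusted p = 0.206 in limma). cpt-4, a carnitine palmitoyltransferase, had 3.57, 3.45 and 1.80 CPM on auxin and 8.78, 3.88 and 5.74 CPM after mock treatment (log2 fold change -1.02, adjusted p = 0.445 in limma). fat-7, a stearoyl-CoA desaturase, had 76.0, 58.5 and 66.7 CPM on auxin and 38.2, 48.2 and 58.2 CPM after mock treatment (log2 fold change 0.49, adjusted p = 0.779 in limma). The groups of cpt-4 and fat-7 did not overlap, those of fat-7 by a narrow margin. Of 69 genes of fatty acid metabolism 0 were called. At an unadjusted p under 0.05, 5 were higher and 3 lower, where 2.09% of all genes tested were higher and 1.71% lower. The yolk protein gene vit-6 had 15451, 15025 and 22566 CPM on auxin and 19852, 15119.8 and 13429 CPM after mock treatment.

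Cell type markers were checked for a change in the make-up of the worms. Intestinal markers summed to 16804, 14945 and 22389 CPM on auxin and 21323, 15294 and 14608 CPM after mock treatment, which overlapped, with 10 of 10 detected in every library. This list included the yolk protein gene vit-2, whose part in the sums was not examined. Of these 10 markers 8 had a positive log2 fold change (median 0.12, highest 0.67), and 2 were higher at an unadjusted p under 0.05, where 2.09% of all genes tested were. Their part in the values of the detoxification genes was not tested. Oocyte and eggshell markers summed to 17607, 23454 and 31062 CPM on auxin and 16952, 25305 and 25132 CPM after mock treatment. Replicate 1 was the lowest for these germline genes in both groups. Of 9 body wall muscle markers 9 had a positive log2 fold change (median 0.29), with sums of 1158, 750.2 and 995 CPM on auxin and 1139, 624 and 690.0 CPM after mock treatment. Hypodermal markers, 4 in all, summed to 373, 432 and 425 CPM on auxin and 341, 367 and 339 CPM after mock treatment. These sums did not overlap. The list of hypodermal markers as written named collagen genes too (dpy-7, col-10, col-19 and rol-6), so it can share members with the collagen list. Not every gene so named was in the data, and rol-6 was not among the 4. The part of the hypodermal markers in the collagen values was not tested. Of the 14 mitochondrial transcripts 14 had a negative log2 fold change (median -0.30, 0 called). At an unadjusted p under 0.05, 6 were lower, as were 1.71% of all genes tested. Within replicate numbers 1, 2 and 3 their median log2 difference was -0.13, -0.10 and -0.59. They summed to 6488, 5628 and 3701 CPM on auxin and 8028, 5474 and 4534 CPM after mock treatment, so replicate 2 was higher on auxin.

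The degron strain gave a second view of the same treatment, with no library in common, although auxin there also acts on HSF-1. In JTL611 at 24 h 0 genes were called for auxin against mock treatment, with 1667 at an unadjusted p under 0.05. The 9 genes called in CA1200 were all higher on auxin in JTL611, each at an unadjusted p under 0.05, where 7.82% of all genes tested were higher at that p. Both strains shared the same estimate of each gene's spread in the limma fit. Genes chosen for a small p in CA1200 are therefore favoured to have a small p in JTL611, and the p-values of the strains are not independent. In 7 of the 9 every JTL611 auxin library lay above every JTL611 mock library, against 3.08% of all genes tested. cyp-35A3 had 29.6, 26.2 and 65.9 CPM on auxin in JTL611, against 9.19, 7.17 and 2.32 CPM after mock treatment. Replicate 3 combined the highest auxin and the lowest mock level. T16G1.6 had 6.35, 5.90 and 11.6 CPM on auxin in JTL611, against 2.85, 1.82 and 1.45 CPM after mock treatment, and pgp-1 had 61.3, 47.3 and 62.0 CPM, against 36.6, 14.6 and 25.8 CPM. The exceptions to separation were C32H11.4, with 9.41, 4.34 and 3.37 CPM on auxin and 3.49, 0.999 and 0.930 CPM after mock treatment, and gst-5, with 18.2, 9.38 and 10.3 CPM on auxin and 9.91, 6.11 and 5.32 CPM after mock treatment.

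The difference between the auxin effects of CA1200 and JTL611 was tested in the same limma fit. No gene was called (0 of 10245, 622 at an unadjusted p under 0.05, smallest adjusted p 0.751). All 9 genes had the larger effect in CA1200, where they had been chosen, so nothing is read from that count. The log2 effect of irg-4 was larger in CA1200 by 1.06 (95% interval 0.26 to 1.87), that of gst-5 by 0.56 (0.12 to 1.01) and that of T16G1.6 by 1.01 (0.01 to 2.01), with an adjusted p of 0.751 or above in limma. For cyp-35A3 the difference was 0.52 with an interval of -0.98 to 2.01, and for cest-33 it was 0.15 with an interval of -0.18 to 0.48. For hsp-90 it was 0.61 (0.11 to 1.12), with 2088, 3511 and 4296 CPM on auxin and 3814, 5446 and 4853 CPM after mock treatment in JTL611. For col-103 it was 0.44 (0.12 to 0.75). None of these passed the adjustment.

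**Figure D4:**
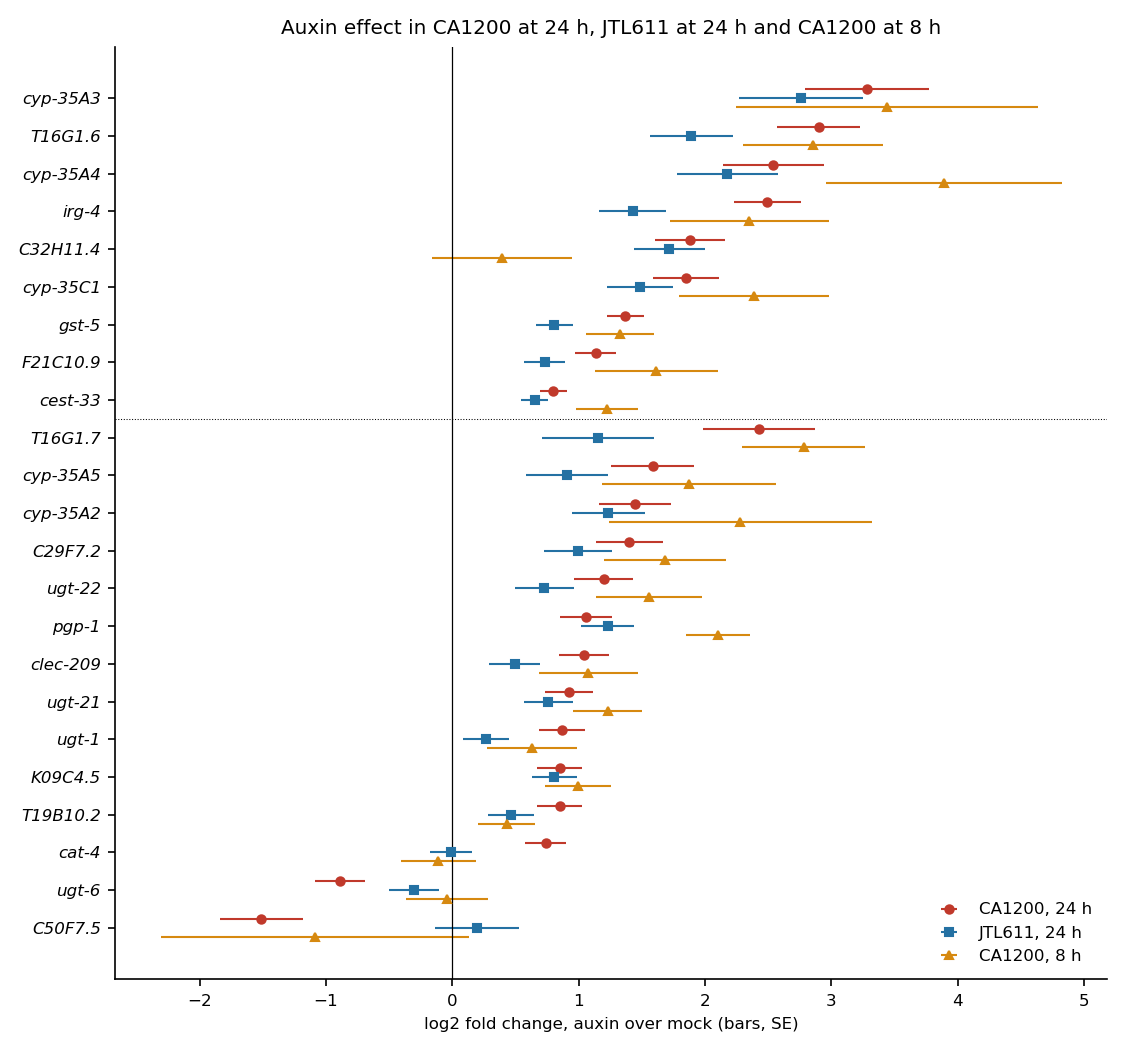
Log2 fold change of auxin over mock treatment (points; bars, SE) in CA1200 at 24 h (red circles), JTL611 at 24 h (blue squares) and CA1200 at 8 h (orange triangles) for the 9 called genes (above the dotted line) and the genes with the next smallest p (clec-209 drawn once). The 9 called genes lie to the right of 0 in all 3 comparisons, while cat-4 is at -0.01 in JTL611 and -0.11 at 8 h.

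The earlier time point came from other worms and another table, normalized on its own, so values are set side by side with no test between them. In CA1200 at 8 h, fitted without a block, 1 gene was called, pgp-1, with 422 at an unadjusted p under 0.05. With the replicate block 7 genes were called higher at 8 h (0.0652%), among them irg-4, T16G1.6, F21C10.9 and cest-33 of the 9, and 3 lower (0.0279%). These 3 were mitochondrial transcripts, ND6 with a log2 fold change of -1.37, WBGene00010958 with -2.06 and WBGene00010961 with -1.51. All 9 genes were higher on auxin at 8 h, 8 of them at an unadjusted p under 0.05, where 2.01% of all genes tested at 8 h were higher at that p. In 6 of the 9 the groups did not overlap, against 6.38% of all genes tested. cyp-35A3 had 62.9, 56.1 and 49.7 CPM on auxin at 8 h, against 12.6, 8.12 and 1.21 CPM after mock treatment. cyp-35C1 had 111, 127 and 68.5 CPM on auxin at 8 h, against 27.6, 26.7 and 8.98 CPM after mock treatment.

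pgp-1 had 30.2, 22.9 and 16.2 CPM on auxin at 8 h, against 4.63, 5.39 and 5.42 CPM after mock treatment, a log2 fold change of 2.10 ± 0.25 (adjusted p = 0.042 in limma). Its log2 fold change at 24 h was 1.06, and the groups did not overlap at either time. C32H11.4 had the largest p of the 9 at 8 h, with 2.03, 1.62 and 0.313 CPM on auxin and 0.712, 0.910 and 0.713 CPM after mock treatment. T16G1.6 had 18.6, 14.9 and 5.38 CPM on auxin at 8 h, against 2.40, 1.44 and 0.927 CPM after mock treatment, and F21C10.9 had 48.5, 64.9 and 21.3 CPM, against 10.8, 24.3 and 8.70 CPM. In both genes replicate 3 was the lowest auxin library at 8 h.

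**Figure D5:**
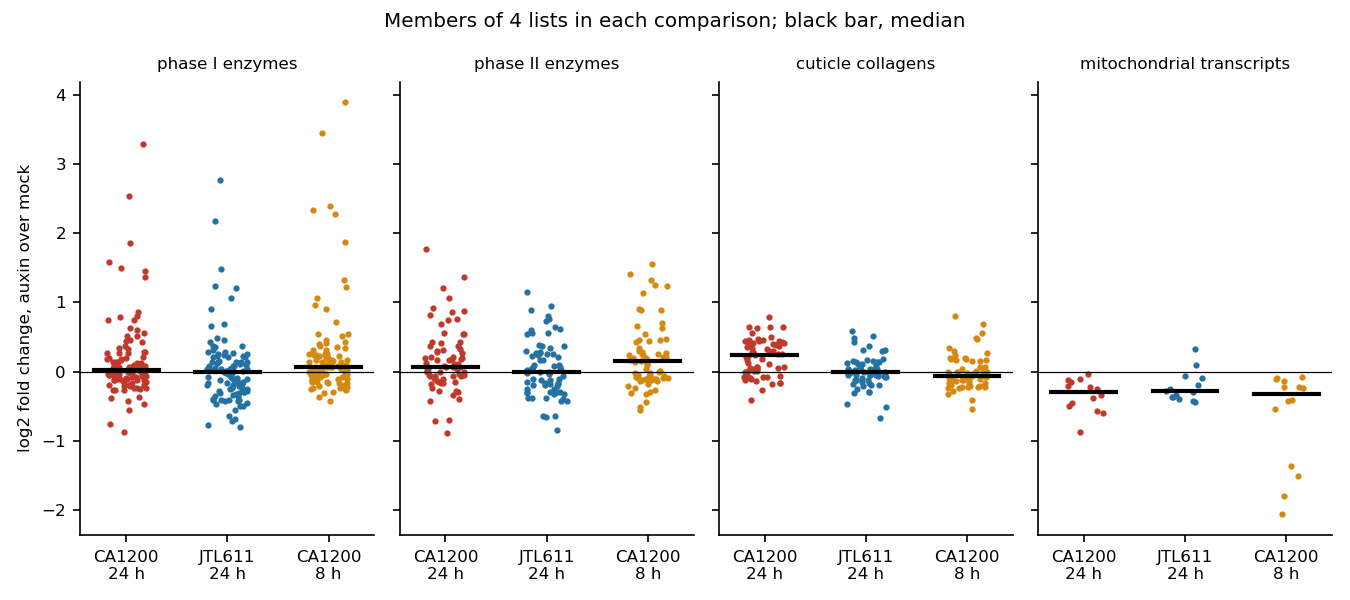
Log2 fold change of auxin over mock treatment for the members of 4 lists in CA1200 at 24 h (red), JTL611 at 24 h (blue) and CA1200 at 8 h (orange), with a black bar at each median. Collagens have a median of 0.23 in CA1200 at 24 h, against -0.01 in JTL611 and -0.07 at 8 h, and mitochondrial transcripts have negative medians in all 3.

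Among genes with a mean of 2 CPM or more, the next 15 gene IDs by p had adjusted p from 0.0769 to 0.196 in limma. clec-209 stands among them under both of its IDs and is counted under each. Of the 15 IDs, 13 had a positive and 2 a negative log2 fold change. In 11 every auxin library lay above every mock library, against 2.04% of all genes tested, a property that the choice by small p favours. cat-4, the GTP cyclohydrolase that makes a cofactor of dopamine and serotonin synthesis, had 11.3, 10.8 and 9.49 CPM on auxin and 6.33, 5.17 and 7.45 CPM after mock treatment in CA1200. In JTL611 it had 8.41, 9.26 and 10.1 CPM on auxin and 10.8, 7.93 and 9.45 CPM after mock treatment, and these overlapped (log2 difference of the effects 0.75, interval 0.25 to 1.25, not called). K09C4.5 had 6.91, 4.31 and 5.71 CPM on auxin and 2.82, 2.41 and 4.07 CPM after mock treatment, and T19B10.2 had 13.2, 10.7 and 10.5 CPM, against 8.30, 4.76 and 6.25 CPM. cat-4, T19B10.2, ugt-22, T16G1.7, T16G1.9, mrp-4, hsp-90, col-103 and col-119 overlap genes on the opposite strand, whose reads cannot be told apart from theirs without the strand setting. C50F7.5 was the lowest, with 0.781, 1.94 and 0.321 CPM on auxin and 3.19, 3 and 1.67 CPM after mock treatment (log2 fold change -1.51, adjusted p = 0.196 in limma).

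The calls rest on the shared fit. Without the replicate block 1 gene was called (T16G1.6), and from the 6 CA1200 libraries alone, with or without the block, 0 were called. When each CA1200 library was left out in turn, 3 to 13 genes were called higher: 3 without auxin replicate 1, 5 without auxin replicate 2, 5 without auxin replicate 3 and 3 without mock replicate 3. Without auxin replicate 3, only irg-4, T16G1.6 and gst-5 of the 9 were among the 5. clec-209, with equal reads under both of its IDs, was called under each ID in 1 of the fits. irg-4, T16G1.6 and gst-5 were called in each of these 6 fits, whereas cyp-35A3, cyp-35A4 and cest-33 were called in 1 of 6.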

How the data were processed

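RNA-seq of poly(A)-selected, directional, paired-end libraries from whole young adults was used. The authors aligned reads with STAR to WBcel235, counted them on genes with featureCounts, removed genes with low CPM and deposited log2 CPM values made with edgeR, with a prior. Some samples had longer reads, which the authors trimmed. The 24 h table lists 10307 genes, of which 10302 were in Ensembl release 115 and 9989 had a symbol. A column with the authors' own calls was not used, and 0 columns of other samples were used. With the log and the prior (0.110 CPM at 24 h, 0.114 CPM at 8 h) undone, 100% of values up to 5000 reads were within 0.1 of whole reads. Reads are not independent molecules, and floors of 3 reads cover counting error only.

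Genes reaching 1 CPM in 25% or more of a table's libraries entered the fits (10245 at 24 h, 10739 at 8 h), made in limma 3.58.1 (R 4.3.3; lmFit and eBayes with trend) on the deposited log2 values, two-sided, with Benjamini-Hochberg adjustment. The deposited unit is not counts, so no count test was run. A mean per group was fitted. Intervals are 95%. Same-numbered libraries were checked for shared deviations from the group means (criterion, a correlation over 0.1 in every pair). In CA1200 auxin and mock libraries the correlations were 0.71, 0.22 and 0.45 at 24 h, so the replicate number was a block, and 0.30, 0.12 and 0.09 at 8 h, where no block was used. The labels do not say what a number marks. Fits were tested on simulated data with known changes. The genes, lists and tests were chosen with earlier results of these data known. Lists were fixed by symbol, and counts and medians are given with no set test.

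Named were hsf-1, every gene called, the genes with the smallest p and a mean of at least 2 CPM up to 24 in all, pgp-1, T16G1.6 and, from each list, the 2 members with the smallest p and the most abundant one. Of these not all are printed, and other list members, chromosomal neighbours and K12D9.1 were named after their values were seen. Alternatives were the fit without the block, CA1200 libraries alone, log2(CPM + 0.5), log2(CPM + 1), voom weights, library quality weights, centring on the median, no filter on low values, no limit on the mean, and each CA1200 library left out. Figures were drawn in Python 3.11.15.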

Additional observations from a re-analysis of the deposited data

How the results depend on the processing

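Against 9 genes called higher and 0 lower in CA1200 at 24 h, the replicate block decided most calls: without it 1 was called higher. From the CA1200 libraries alone, 0 were called higher with the replicate block and 0 without it, where fewer samples leave fewer degrees of freedom. With library quality weights and the block, 33 were called higher and 2 lower, all 9 among the 33, with weights from 0.178 to 11.9. With each CA1200 library left out in turn, 3 to 13 were called higher and 0 to 1 lower, the lowest count without auxin replicate 1 or without mock replicate 3, and 5 without auxin replicate 2 or 3. Without auxin replicate 3 not all of the 5 were among the 9. The other 6 settings (added constants of 0.5 and 1, voom weights, centring, no filter, no limit on the mean) called 9 or 10 higher and 0 lower, with the same 9 genes in each. The pairing at 8 h missed the criterion, and the replicate block there gave 10 calls, against 1 without it. The difference between strains gave 0 calls in every setting run. No named gene called at 24 h reversed its direction under any setting. Means of 3 libraries and few reads limit genes of low level, such as C32H11.4 and lbp-8.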

Other observations

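Some groups not described above gave values without a call. Of 81 cytosolic ribosome genes 64 had a positive log2 fold change on auxin in CA1200 at 24 h, with a median of 0.07, and 0 had an unadjusted p under 0.05 in limma. In JTL611 the median of the same genes was -0.05, and at 8 h in CA1200 it was -0.19. Of 8 pals genes, which respond to intracellular pathogens, 0 had an unadjusted p under 0.05 at 24 h. ins-7, an insulin-like peptide gene, had 1.06, 1.19 and 0.257 CPM on auxin and 2.66, 0.764 and 1.90 CPM after mock treatment, and the groups overlapped.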
